A study of Mus musculus with 20 samples.

Results

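The binding sites of FLAG-tagged JMJD3 at day 5 of reprogramming were compared between mouse embryonic fibroblasts (MEFs) given OSKM and MEFs given the same factors with less KLF4 (OSlowKM, here "low KLF4"). OSKM stands for the viral vectors for OCT4, SOX2, KLF4 and c-MYC. Both groups were wild-type MEFs of the strain labelled C57BL/6J-OG2, overexpressed FLAG-JMJD3, and were kept in medium with vitamin C. Low KLF4 was set in the study's methods by a smaller volume of the Klf4 retrovirus. The members were all 14067 positions of the OSKM list and all 2284 positions of the low-KLF4 list, out of 14 lists of the series. Each position is 1 bp wide and carries no score. Positions within 400 bp were joined by single linkage, which gave 14516 sites, namely 12236 OSKM-only, 1807 common and 473 low-KLF4-only sites. There was 1 library per group, so no test between groups was possible, and intervals below are 95% and cover counting error only. The read depth of both libraries is unknown here. A shorter list can come from fewer reads or from weaker binding, and these cannot be told apart with 1 bp positions. Only exogenous JMJD3 was measured, in a culture whose cells the labels call intermediate, and the OG2 strain carries an Oct4-GFP transgene.

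JMJD3, encoded by Kdm6b, is a demethylase of H3K27me3, the histone mark that Polycomb complexes place on silent genes. It has no DNA-binding domain for a defined sequence and reaches chromatin with other proteins. KLF4 is a zinc-finger factor that reads CACCC-type sequences and activates epithelial and pluripotency genes in reprogramming. AP-1 (FOS and JUN dimers) and RUNX proteins are somatic factors that occupy fibroblast enhancers.

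Sites are shown first, since the classes differed in the letters they held. The 7 windows below are 200 bp centred on a site within 50 kb of a TSS of a listed gene and overlap no annotated exon. They are read from the plus strand of GRCm38.p6 (same coordinates as mm10). Capitals mark matches on either strand to the motif families KLF (CACACCC or CACGCCC), AP-1 (TGACTCA or TGAGTCA), RUNX (TGTGGTT), POU (ATTTGCAT) and SOX (CATTGTT). For OSKM-only sites, windows with a KLF match at epithelial or pluripotency genes are given. They were chosen for this match, which 16.8% of OSKM-only sites held, and do not stand for the class. Mycn and Jup each had an OSKM-only site nearer to a TSS and without a KLF match, 99 bp upstream and 560 bp downstream. Tet2 (chr3:133544680-133544879) encodes a 5-methylcytosine oxidase, and its window lies 390 bp upstream of a Tet2 TSS, inside the gene. Mycn (chr12:12943420-12943619) encodes a MYC family factor, and its window is intergenic, 1606 bp upstream. Pkp1 (chr1:135933809-135934008) and Jup (chr11:100376089-100376288) encode desmosome proteins, and their windows are intergenic, 14.7 kb upstream, and in an intron of Jup. The Pkp1 and Jup sites lay within 400 bp of a KLF4 peak and the Tet2 and Mycn sites did not.
Tet2: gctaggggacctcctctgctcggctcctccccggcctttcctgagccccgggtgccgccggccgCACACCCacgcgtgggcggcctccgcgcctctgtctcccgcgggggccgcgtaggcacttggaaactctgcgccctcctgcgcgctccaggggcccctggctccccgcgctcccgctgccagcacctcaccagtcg
Mycn: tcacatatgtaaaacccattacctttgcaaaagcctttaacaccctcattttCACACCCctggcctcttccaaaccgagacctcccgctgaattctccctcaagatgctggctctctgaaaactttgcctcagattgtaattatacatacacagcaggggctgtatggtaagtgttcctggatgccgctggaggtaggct
Pkp1: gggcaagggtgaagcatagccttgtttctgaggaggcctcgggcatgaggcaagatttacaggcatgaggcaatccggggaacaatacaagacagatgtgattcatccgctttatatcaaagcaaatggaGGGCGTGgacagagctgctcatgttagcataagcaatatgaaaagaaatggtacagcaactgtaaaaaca
Jup: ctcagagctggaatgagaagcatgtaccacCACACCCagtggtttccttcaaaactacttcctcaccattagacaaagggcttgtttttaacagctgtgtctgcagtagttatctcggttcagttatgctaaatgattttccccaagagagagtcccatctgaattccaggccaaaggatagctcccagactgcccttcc

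For common sites, windows chosen for an AP-1 match, which 11.6% of common sites held, are given. Vim (chr2:13573580-13573779) encodes the mesenchymal filament vimentin, and its promoter window lies 272 bp upstream of the TSS. The window holds the AP-1 motif in both orientations, since TGACTCA and TGAGTCA are reverse complements. Twist2 (chr1:91816716-91816915) encodes a mesenchymal transcription factor, and its window is intronic. The Vim site was near a KLF4 peak and the Twist2 site was not.
Vim: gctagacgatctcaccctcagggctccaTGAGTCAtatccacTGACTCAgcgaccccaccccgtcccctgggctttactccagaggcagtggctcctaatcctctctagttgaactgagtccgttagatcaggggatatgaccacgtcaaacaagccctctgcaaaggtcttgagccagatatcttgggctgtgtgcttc
Twist2: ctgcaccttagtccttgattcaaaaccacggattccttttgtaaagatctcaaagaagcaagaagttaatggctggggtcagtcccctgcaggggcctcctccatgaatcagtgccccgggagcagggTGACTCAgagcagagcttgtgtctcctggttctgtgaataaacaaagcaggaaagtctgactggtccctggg

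For low-KLF4-only sites, a window chosen for AP-1 matches is given, and 16.1% of low-KLF4-only sites held a match. Klf6 (chr13:5845192-5845391) encodes a KLF family factor, and its intergenic window, 16.19 kb upstream, holds the AP-1 motif in both orientations. The site was not near a KLF4 peak.
Klf6: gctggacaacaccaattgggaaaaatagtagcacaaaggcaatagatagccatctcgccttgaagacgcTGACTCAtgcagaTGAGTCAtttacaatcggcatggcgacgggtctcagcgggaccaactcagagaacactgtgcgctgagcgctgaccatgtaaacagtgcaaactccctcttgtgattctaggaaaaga

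How far JMJD3 positions depended on the amount of KLF4 was asked from the overlap of both lists. Of 14043 OSKM sites, 1807 (12.9%, 12.3 to 13.4) also held a low-KLF4 position and are called kept below. Of 2280 low-KLF4 sites, the same 1807 (79.3%, 77.5 to 80.9) held an OSKM position. Within common sites, the OSKM and the low-KLF4 position lay a median of 47 bp apart, with quartiles of 22 and 92 bp. They coincided at 12 sites and were within 100 bp at 1402 of the 1807 sites (77.6%). Thus most pairs were closer than the 400 bp allowed, and 92.8% were within 200 bp. Of the 473 low-KLF4-only sites, 73 (15.4%) had an OSKM position within 1 kb, 22 of them within 500 bp, and 216 (45.7%) had none within 50 kb. The kept share by chromosome ranged among autosomes from 10.4% on chromosome 5 to 14.5% on chromosome 16, and was 7.34% (4.57 to 11.6) on chromosome X, where 16 of 218 OSKM sites were kept.

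A TSS was within 1 kb of 30.3% (29.5 to 31.1) of OSKM-only, 29.7% (27.7 to 31.9) of common and 33.8% (29.7 to 38.2) of low-KLF4-only sites. The interval of the difference between OSKM-only and common sites ran from -1.71 to 2.81 points, and between OSKM-only and low-KLF4-only sites from -7.98 to 0.68 points. With positions merged at 1000 bp both differences changed sign, to -1.95 and 2.28 points, and their intervals again included 0. Distances of 5 to 50 kb were the most frequent in each class, with 41.2%, 41.2% and 39.1%. Median distances were 8.69, 10.9 and 8.39 kb for OSKM-only, common and low-KLF4-only sites. Introns held 35.0%, 32.7% and 30.2% and intergenic sequence 32.5%, 36.2% and 33.4% of the classes in that order. Among OSKM sites, 12.6% of those within 1 kb of a TSS and 13.0% of those farther away were kept, a difference of -0.31 points (-1.49 to 0.91).

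**Figure D1:**
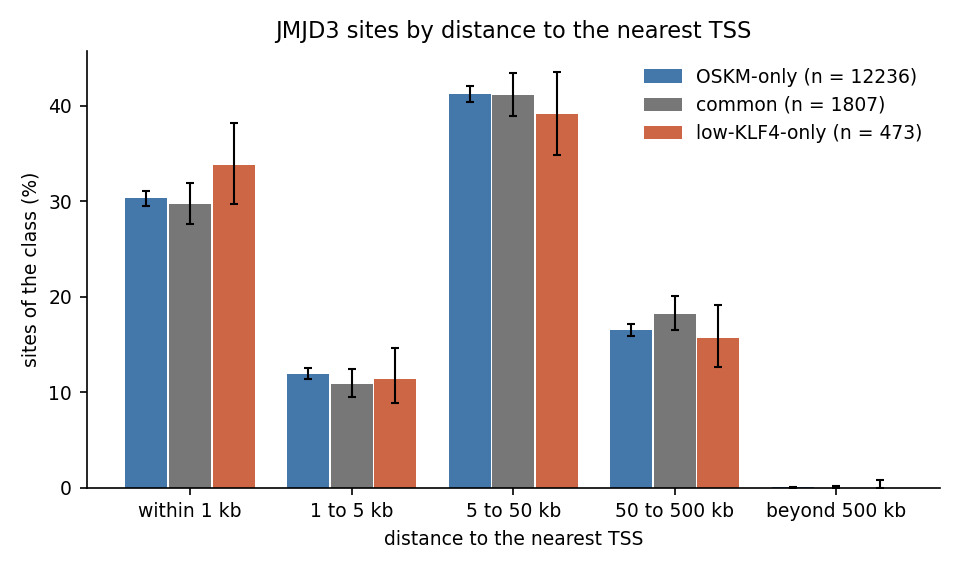
Share of sites (%, vertical axis) in 5 bins of distance to the nearest TSS for OSKM-only, common and low-KLF4-only sites, with bars for 95% Wilson intervals. The 3 classes have shares of 30.3%, 29.7% and 33.8% within 1 kb and 41.2%, 41.2% and 39.1% at 5 to 50 kb.

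KLF4 occupancy was read from 2 KLF4 peak lists of day 5 OSKM cells, one with FLAG alone and one with exogenous JMJD3. Both were made with the full amount of KLF4, so they do not show KLF4 in the low-KLF4 cells. A KLF4 peak midpoint of either list was within 400 bp of 36.3% (35.5 to 37.2) of OSKM-only, 33.6% (31.4 to 35.8) of common and 15.2% (12.3 to 18.7) of low-KLF4-only sites. OSKM-only exceeded common sites by 2.71 points (0.34 to 5.02) and low-KLF4-only sites by 21.1 points (17.5 to 24.2). Away from promoters (over 1 kb from a TSS) the shares were 27.8%, 24.4% and 4.47%, the last from 14 of 313 sites. At promoters they were 55.8%, 55.3% and 36.2%. Of the 72 low-KLF4-only sites near a KLF4 peak, 58 were at promoters. OSKM sites with a KLF4 peak were kept at 12.02% (607 of 5049) and those without at 13.3% (1200 of 8994), a difference of -1.32 points (-2.45 to -0.17). The interval included 0 at promoters, -0.22 points (-2.25 to 1.78), and without mostly repeat-masked windows, -1.19 points (-2.37 to 0.01), and the mean over quintiles of GC content was -0.72 points. By list, 12.5% of OSKM sites with a peak in both KLF4 lists, 8.76% (6.52 to 11.7) of those with a peak in the FLAG list alone and 12.03% of those with a peak in the JMJD3 list alone were kept.

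The classes differed in which motif letters their sites held. Of 200-bp windows, 16.8% (16.2 to 17.5) of OSKM-only, 10.7% (9.34 to 12.2) of common and 6.13% (4.30 to 8.67) of low-KLF4-only sites held a KLF match. Windows 2 kb away on both sides held one in 4.77%, 4.76% and 4.65%. In low-KLF4-only sites the KLF share was thus close to that of the flanks, with a difference of 1.48 points (-0.91 to 4.27). AP-1 ran the other way, with 7.00% (6.57 to 7.47), 11.6% (10.2 to 13.2) and 16.1% (13.0 to 19.7) against flank shares of 3.55%, 3.85% and 2.43%. OSKM-only and low-KLF4-only sites differed by 10.7 points (8.09 to 12.6) for KLF and by -9.06 points (-12.7 to -5.99) for AP-1. With 100-bp windows these differences were 6.11 and -5.98 points. RUNX matches were found in 4.92%, 7.03% and 9.73%, and in the flanks in 5.19%, 3.87% and 4.33%. The RUNX share of OSKM-only sites was not above its flanks, while those of common and low-KLF4-only sites were 1.81 and 2.24 times theirs. OSKM-only and low-KLF4-only sites differed by -4.805 points (-7.83 to -2.42) for RUNX, and by -1.91 points (-4.17 to -0.36) with 100-bp windows.

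Matches for the other reprogramming factors did not follow this order. SOX matches were in 8.64%, 9.24% and 6.34% of OSKM-only, common and low-KLF4-only sites, and POU matches, the sites of OCT4, in 3.70%, 5.04% and 3.59%. The POU share of common sites was above that of OSKM-only sites by 1.33 points, written as OSKM-only minus common -1.33 (-2.49 to -0.35). The joint OCT-SOX element, CATTGT followed after 1 base by ATGCAA, had an exact match in 4 OSKM-only sites, 1 common site and no low-KLF4-only site. With up to 2 mismatches, a setting chosen after the data were seen, it was in 8.15%, 11.1% (9.76 to 12.7) and 8.46% of sites against 1.95%, 2.08% and 1.69% of flanks. TEAD (CATTCCA or CATTCCT) was in 8.82%, 9.46% and 8.67%, near its flank shares of 7.54%, 8.19% and 7.72%. The GC box (CCCGCCC), read by SP factors and found in promoters, was in 11.5%, 10.7% and 9.09% of sites against at most 1.57% of flanks. CTCF (AGGGGGC or AGGTGGC) had 6.92%, 6.53% and 8.03%. The E-box CACGTG, read by MYC, was in 4.65% (3.09 to 6.94) of low-KLF4-only sites, from 22 sites, against 2.11% and 1.83% of OSKM-only and common sites. The remaining families, C/EBP (TTGCGCAA or TTGCACAA), ETS (CCGGAAG), NRF1 (GCATGCGC) and NFY (CCAATCA or CCAATGA), were each in under 4% of the sites of every class, and each of their class differences had an interval that included 0.

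**Figure D2:**
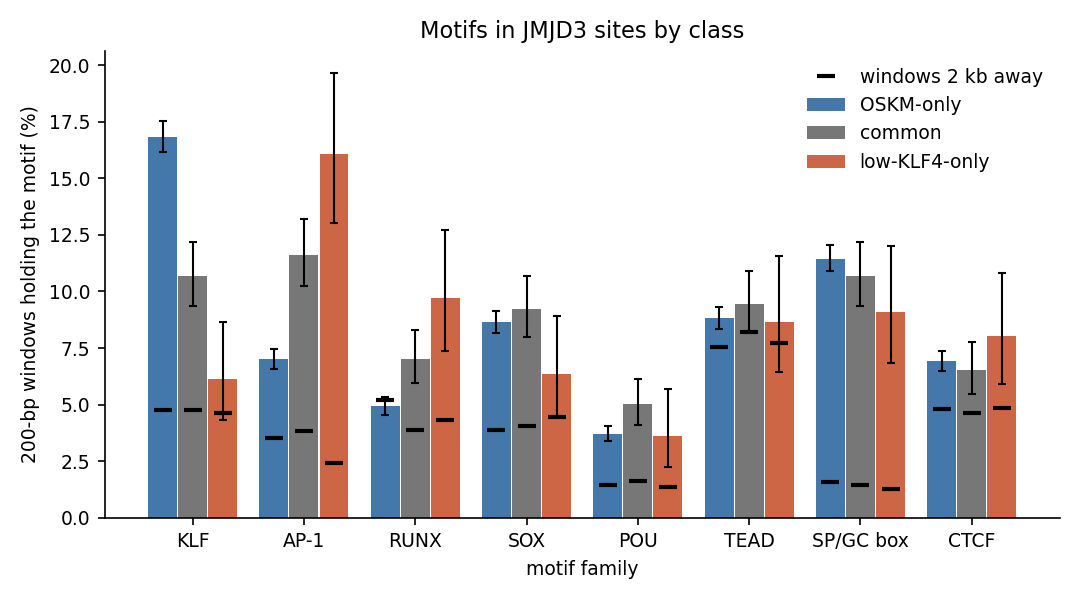
Share of 200-bp windows (%, vertical axis) holding a match for each of 8 motif families, by class, with 95% Wilson intervals. Black dashes give the share in windows 2 kb away. KLF bars fall from 16.8% to 6.13% and AP-1 bars rise from 7.00% to 16.1% from OSKM-only over common to low-KLF4-only sites.

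Within 500 bp of the site centre, matches were counted in bins of 50 bp. In OSKM-only sites the KLF match fell in the 50 bp before the centre in 5.23% of sites and in the outermost bin before it in 1.72%. In low-KLF4-only sites these shares were 1.27% and 3.17%, from 6 and 15 sites, and the matching bins after the centre both held 1.90%. For AP-1 they were 1.99% and 0.956% in OSKM-only, 2.49% and 0.775% in common, and 6.34% and 1.69% in low-KLF4-only sites. Base composition differed little between classes, with a mean GC content of 49.8%, 49.5% and 51.3%.

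**Figure D3:**
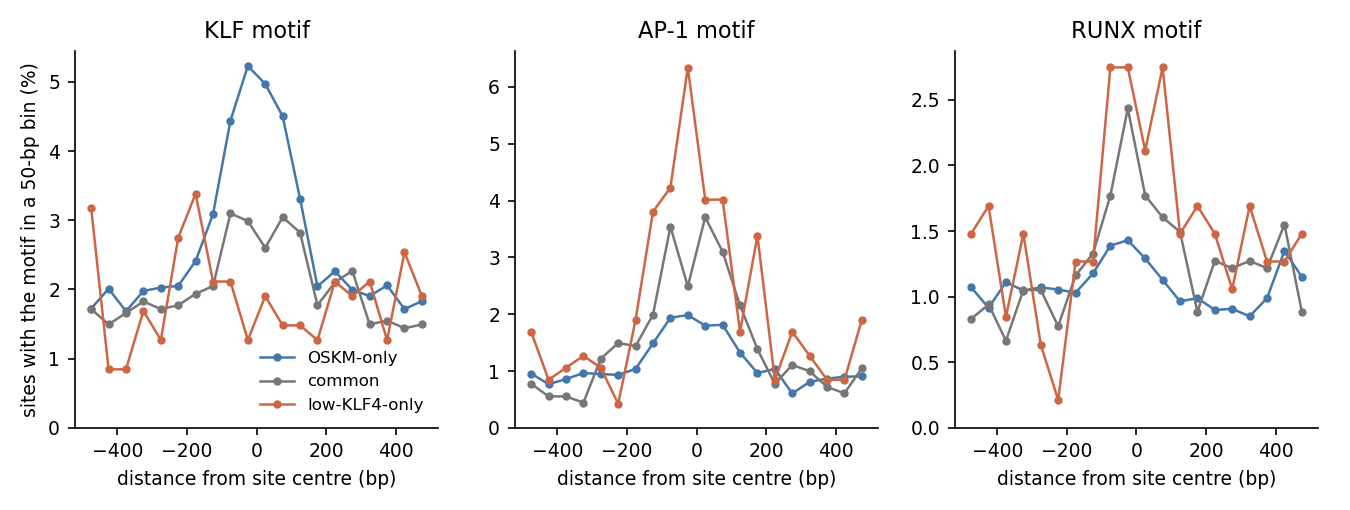
Share of sites (%, vertical axes, each panel with its own scale) with a KLF, AP-1 or RUNX match in 50-bp bins from -500 to 500 bp around the site centre, 1 line per class. The KLF line peaks at the centre for OSKM-only sites (5.23%), and the AP-1 line peaks highest for low-KLF4-only sites (6.34%, from 30 sites).

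Sites over 1 kb from a TSS and promoter sites are given separately. Away from promoters the KLF shares were 18.1%, 10.6% and 3.83% (OSKM-only, common, low-KLF4-only), the AP-1 shares 9.06%, 15.4% and 21.4%, and the RUNX shares 6.38%, 9.06% and 14.4%. At promoters the KLF shares were 13.9%, 10.8% and 10.6%, and the AP-1 shares 2.27%, 2.61% and 5.62%, the last from 9 sites. The RUNX shares there were 1.6%, 2.2% and 0.625%, the last from 1 site, and did not rise in this order. The 73 low-KLF4-only sites with an OSKM position within 1 kb are given apart from the other 400. Of the 73, 72.6% (61.4 to 81.5) were within 1 kb of a TSS, 37.0% had a KLF4 peak, 16.4% a KLF match and 2.74% an AP-1 match. Of the 400, the shares were 26.8% (22.7 to 31.3), 11.2%, 4.25% and 18.5%. A RUNX match was held by 1.37% of the 73, from 1 site, and 11.2% of the 400.

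Seen from the OSKM list, sites with a KLF match were kept less and sites with an AP-1 match more often. With a KLF match 8.57% (7.48 to 9.79) of 2253 sites were kept, and without one 13.7% (13.1 to 14.3) of 11790, a difference of -5.12 points (-6.38 to -3.75). With an AP-1 match 19.7% (17.4 to 22.2) of 1067 were kept, and without one 12.3% (11.7 to 12.9) of 12976, a difference of 7.37 points (5.03 to 9.93). RUNX and POU matches went with differences of 4.803 (2.16 to 7.78) and 4.02 points (1.06 to 7.43), and SOX and TEAD with 0.85 (-1.05 to 2.96) and 0.89 points (-0.997 to 2.99). The POU interval included 0 with positions merged at 1000 bp, 2.50 points (-0.45 to 5.93), and with windows on the OSKM position, 2.72 points (-0.15 to 6.07). At promoters both intervals included 0, with 4.57 points (-2.56 to 15.1) for RUNX and 7.402 points (-3.14 to 24.7) for POU. The OCT-SOX element with up to 2 mismatches went with 4.28 points (2.18 to 6.57), from 201 of 1198 sites kept with it.

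Within 1 kb of a TSS the difference for AP-1 was 1.67 points (-4.00 to 10.0), from 98 sites with a match, and that for KLF -2.94 (-5.42 to -0.01). Farther away they were 8.06 (5.55 to 10.8) and -5.94 points (-7.37 to -4.36). A distal GC box also went with fewer kept sites, 7.07% (4.87 to 10.2) of 368 against 13.2% of 9430, while promoter sites with one were kept at 13.6% against 12.3%. The KLF difference was -5.31 points (-7.07 to -3.41) among sites with a KLF4 peak and -4.58 points (-6.47 to -2.38) among those without. Sites with a KLF4 peak, a KLF match and no AP-1 match were kept at 7.73% (98 of 1267). Sites with neither peak nor KLF match and with an AP-1 match were kept at 21.2% (150 of 706). The 176 sites that held both KLF and AP-1 matches were kept at 14.2% (9.81 to 20.1), between KLF alone at 8.09% and AP-1 alone at 20.8%. When OSKM sites were split into quintiles of GC content, the KLF difference ranged from -8.50 to -2.11 points, and the AP-1 difference from 13.2 to -4.18 points, with the negative value in the quintile richest in GC, from 42 sites with a match. That quintile held 18 sites with a RUNX and 1 with a POU match, none of the latter kept. The mean difference over all 5 quintiles was 2.65 points for RUNX and 0.53 for POU, and without that quintile it was 5.35 and 4.07 points.

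**Figure D4:**
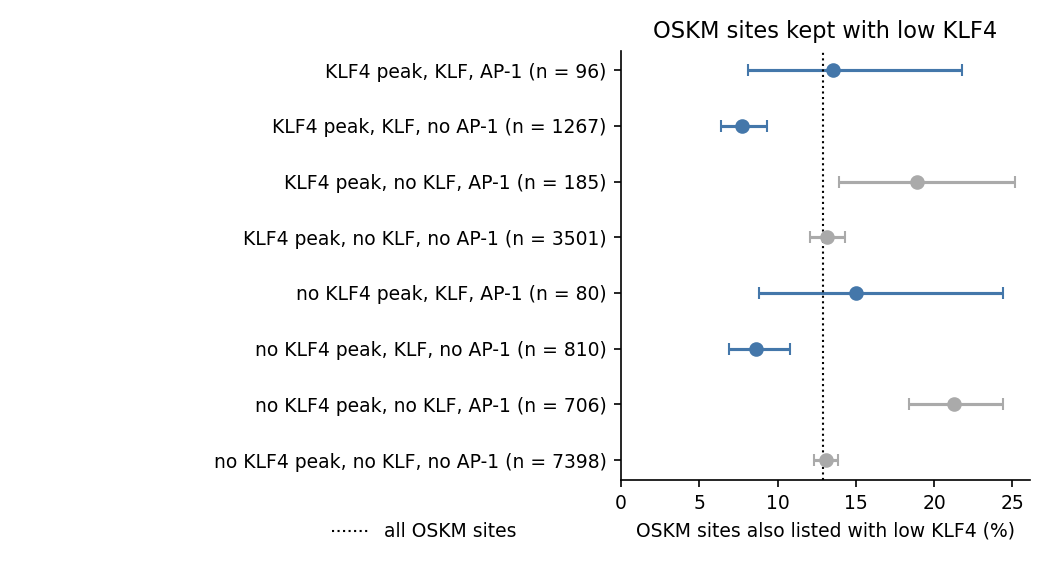
Share of OSKM sites that also held a low-KLF4 position (%, horizontal axis) for the 8 combinations of a KLF4 peak within 400 bp, a KLF match and an AP-1 match, with 95% Wilson intervals. Sites with a KLF match are blue, and the dotted line is the share over all OSKM sites (12.9%). The lowest value is 7.73% and the highest 21.2%.

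Genes were counted as having a position when one lay within 50 kb of any of their TSSs. Of 21911 protein-coding genes, 48.9% had an OSKM position and 11.3% a low-KLF4 position. Gene lists are read against these shares, and lists of widely expressed genes were above them too: among 16 housekeeping genes 12 had an OSKM and 7 (43.8%) a low-KLF4 position. The counts depended on the distance allowed, since within 10 kb 24.6% and 4.37% of all protein-coding genes had one.

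Of 20 epithelial genes, 12 had an OSKM and 5 a low-KLF4 position. Cdh1, the E-cadherin gene, had 2 OSKM-only sites, the nearest 3587 bp upstream of its TSS at position 106599764 of chromosome 8, and no low-KLF4 position. Epcam, an epithelial adhesion gene, had 2 OSKM-only sites, the nearest 32540 bp upstream with a KLF4 peak and a KLF match. Dsp, Pkp1, Pkp3 and Jup, genes of the desmosome, had 4, 2, 1 and 5 OSKM-only sites and no low-KLF4 position. Cldn3, a tight junction claudin, had 1 OSKM-only site, 22477 bp downstream. Cldn7, Krt8 and Krt18 each had 1 common site beside 2 to 5 OSKM-only sites, and Krt8 and Krt18, simple epithelial keratins, are neighbours with the same nearest site. Within 10 kb, 5 epithelial genes had an OSKM and 2 a low-KLF4 position. By the nearest gene of each site, 8 (40.0%) had an OSKM and 1 (5.00%) a low-KLF4 site, against 31.8% and 8.39% of all protein-coding genes, so for low KLF4 the order relative to all genes turned with the rule. Cldn6 had 1 OSKM-only and 1 low-KLF4-only site, the latter 2568 bp upstream with an AP-1 match. Ocln, Cldn4, Krt7, Krt19, Esrp1, Grhl2, Ovol1 and Crb3 had no position in either list.

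Of 22 pluripotency genes, 11 (50.0%) had an OSKM and 2 (9.09%) a low-KLF4 position. These shares were near the 48.9% and 11.3% of all protein-coding genes. By the nearest gene of each site, 13 (59.1%) and 3 (13.6%) did, against 31.8% and 8.39% of all protein-coding genes. OSKM-only sites and no low-KLF4 position were found at Nanog (2 sites, the nearest 4368 bp upstream), Sall1 (3, the nearest 28412 bp downstream with a KLF4 peak and a KLF match), Sall4 (1, 25432 bp downstream), Tdh (1, in an intron 8613 bp downstream), Tfcp2l1 (2, 2286 bp upstream) and Fgf4 (3, in an exon 3107 bp downstream). Dppa3, Mycn and Tet2 had 2, 2 and 3 OSKM-only sites and no other. Nanog, Sall4 and Tfcp2l1 encode pluripotency transcription factors, Tdh a threonine-catabolizing enzyme of embryonic stem cells and Fgf4 a growth factor. The KLF4 lists had a peak at the named Sall1, Sall4, Tdh and Fgf4 sites, and none at the Nanog and Tfcp2l1 sites. Both pluripotency genes with a low-KLF4 position held 1 common site and no other, Zfp42 (REX1) 42108 bp downstream and Lin28a, an RNA-binding protein gene, 1975 bp upstream. Esrrb, Nr5a2, Tbx3, Dppa4, Dppa5a, Utf1, Lin28b, Tdgf1, Prdm14, Dnmt3l and Tet1 made up the 11 with no position in either list.

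Genes of the somatic state are given next. Of 20 mesenchymal and fibroblast matrix genes, 13 had an OSKM and 10 a low-KLF4 position, 9 of them both. Twist1, a mesenchymal factor, and S100a4, a fibroblast calcium-binding protein, had a common site 66 and 869 bp downstream of the TSS. Fn1 (fibronectin) had 2 common and 2 OSKM-only sites, and Col3a1 (a fibrillar collagen) 1 common site 29800 bp upstream. Zeb2, a repressor of Cdh1, had a low-KLF4-only site 79 bp downstream of a TSS and 2 OSKM-only sites within 50 kb. Col5a1, another fibrillar collagen, had 1 low-KLF4-only site 89 bp upstream and no OSKM position. Prrx1, Col1a1, Thy1 and Sparc had 3, 2, 1 and 1 OSKM-only sites and no low-KLF4 position, and Snai2, Zeb1, Col1a2, Col5a2, Postn and Lox had no position in either list.

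Of 12 AP-1 subunit genes, 10 (83.3%) had an OSKM and 8 (66.7%) a low-KLF4 position, against 48.9% and 11.3% of all protein-coding genes. Jun, Jund, Fosl2 and Mafk had common sites 504, 131, 834 and 243 bp downstream of their TSSs. Junb had 3 common and 5 OSKM-only sites, while Fos had 6 OSKM-only sites and no low-KLF4 position. Of 10 senescence and cell cycle arrest genes, 7 (70.0%) had an OSKM and 6 (60.0%) a low-KLF4 position. Igfbp3 had 1 common site with an AP-1 match 23971 bp upstream, and Cdkn2a and Cdkn2b none in either list. Of 18 TEAD-YAP and TGF-beta pathway genes, 16 (88.9%) had an OSKM and 6 (33.3%) a low-KLF4 position. Ccn1, a YAP target, had a common site 49 bp downstream of its TSS, whereas Ccn2, Yap1, Smad3 and Tgfbr2 had OSKM-only sites 70 bp downstream, 37 bp upstream, 230 bp downstream and 266 bp downstream and no low-KLF4 position.

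Among 14 KLF family genes other than Klf4, 10 (71.4%) had an OSKM and 6 (42.9%) a low-KLF4 position. The shares over all protein-coding genes were 48.9% and 11.3%. Common sites lay 1 bp and 323 bp downstream of a TSS of Klf3 and Klf13. Of 16 SOX and POU genes 10 and 4, of 25 WNT pathway genes 17 and 6, of 13 genes of the H3K27 methylation machinery 11 and 4, and of 16 cohesin, mediator and elongation genes 10 and 5 had an OSKM and a low-KLF4 position. Of 20 neural development genes, 6 (30.0%) had an OSKM and 2 (10.0%) a low-KLF4 position. By the nearest gene of each site, 8 of the 20 neural genes (40.0%) had an OSKM and 4 (20.0%) a low-KLF4 site. All protein-coding genes had 31.8% and 8.39% by this rule, so for both lists the order relative to all genes turned with the rule. Low-KLF4-only sites stood nearest to the TSS at Atf3 (391 bp upstream), Pou2f1 (517 bp upstream), Kmt2d (89 bp upstream), Stag1 (729 bp downstream), Sox4 (1426 bp downstream) and Neurod1 (2423 bp downstream). Stag1 and Neurod1 had no OSKM position within 50 kb.

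**Figure D5:**
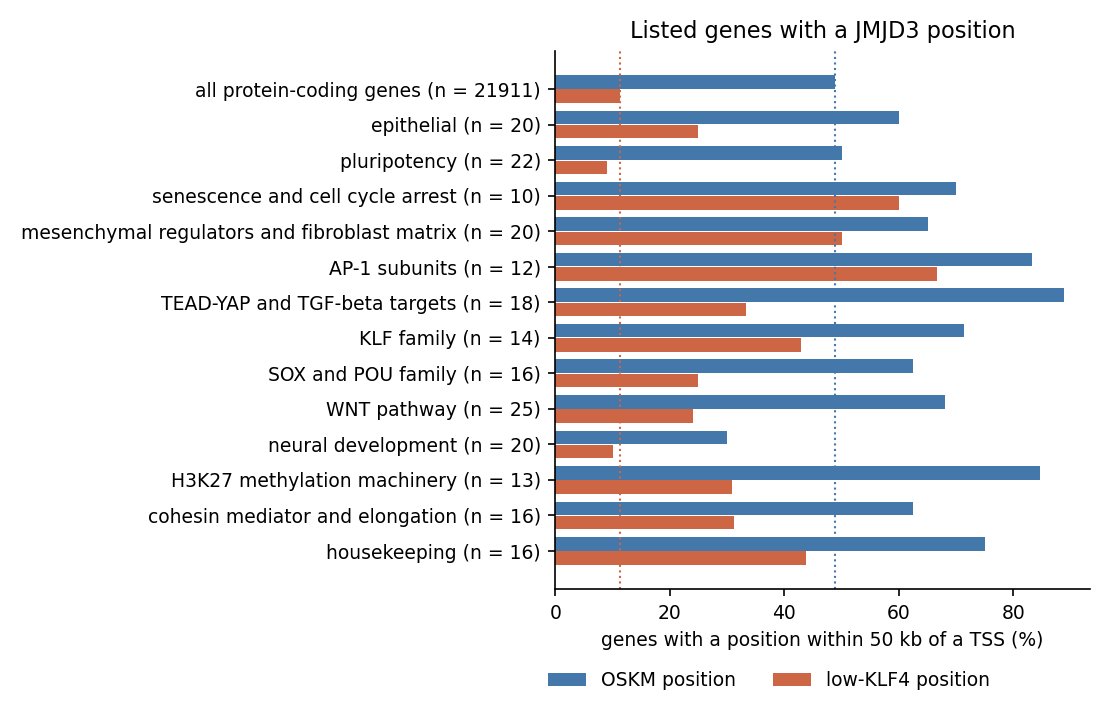
Share of genes (%, horizontal axis) with an OSKM (blue) and a low-KLF4 position (orange) within 50 kb of a TSS, for all protein-coding genes and 13 gene lists with their numbers of genes. Dotted lines mark the shares over all protein-coding genes, 48.9% and 11.3%. The list of vector genes is left out. Among the 13 lists shown, the low-KLF4 share is highest for the AP-1 subunit genes (66.7%) and lowest for pluripotency genes (9.09%).

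By nearest protein-coding TSS, the 12236 OSKM-only sites fell to 6453 genes, the 1807 common sites to 1510 and the 473 low-KLF4-only sites to 448. Of the 448, 304 (67.9%) were also the nearest gene of an OSKM site. Zfhx3, a large zinc-finger homeobox gene, had the most OSKM-only sites, 24, from 0.58 to 373 kb from its TSS, 12 of them with a KLF4 peak, and no low-KLF4 position. It was followed by Efnb2 (22), Zfp608 (21), Klf6 and Zeb2 (18 each), Adgrl3 (17), Marcks and Mat2b (16 each) and Tenm3 and Tenm4 (15 each). Mat2b too had no low-KLF4 position, and the other 8 had 1 to 4 common sites. Tbl1xr1, which encodes a corepressor subunit, had the most common sites, 9 of 22 OSKM sites (40.9%), 2 of the 22 with a KLF4 peak. Epha7 and Pik3c3 followed with 5 each, then Cdh11, Cdh18, Irf2bp2, Klf6, Meis1, Pde4d, Plcl1 and Zfp608 with 4 each. Among low-KLF4-only sites, Cited2, a CBP/p300-binding coactivator gene, led with 4, beside 8 OSKM-only and no common site. A further 22 genes had 2 each, among them, in order of name, 4931408C20Rik, Alcam, Cemip2, Dchs2, Efna5, Foxp1, Hes1, Igf1 and Klf9. Over the 73 genes nearest to 10 or more OSKM sites, 139 of 954 OSKM sites were kept (14.6%, 12.5 to 16.9), and 13 of the 73 genes kept none. By this rule a site can lie far from its gene, with the farthest Tenm3 site 2273 kb away.

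Sites in exons of genes carried by the vectors need separate mention, since reads from viral cDNA cannot be told apart from genomic reads. There were 7, of which 4 were common, in exons of Sox2 (position 34650746 of chromosome 3), Klf4 (55530490, chromosome 4), Myc (61988003, chromosome 15) and Kdm6b (69404490, chromosome 11). The other 3, 1 in Myc and 2 in Kdm6b, were OSKM-only. The Sox2 and Klf4 exon sites also overlapped 9 and 10 of the 10 H3K27me3 lists of the series. These 10 lists include those of wild-type and knockout MEFs before reprogramming, so the overlap was not confined to cells given the vectors. Upstream of the Klf4 gene lay an OSKM-only site at 55532546 and a low-KLF4-only site at 55533147. Pou5f1 had no exon site, and its nearest was OSKM-only, 1933 bp upstream with a KLF4 peak. Reads of the Oct4-GFP transgene and of the Pou5f1 promoter cannot be told apart either. Without the 7 exon sites and the sites in at least 8 H3K27me3 lists, 87.2% of OSKM sites had no low-KLF4 position, against 87.1% with them.

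H3K27me3 peaks lay at few JMJD3 sites of each class. No share over flanking windows or the whole genome was computed, so these counts have no background. In day 5 wild-type cells with FLAG alone, 35 OSKM-only (0.286%, 0.206 to 0.398), 8 common (0.443%, 0.224 to 0.871) and 2 low-KLF4-only sites (0.423%, 0.116 to 1.53) overlapped one. In the matching cells with JMJD3, no peak was listed at 30 of the 35, 4 of the 8 and both of the 2. Of all 6428 H3K27me3 peaks of the FLAG cells, 2980 (46.4%) overlapped no peak of the JMJD3 cells, counted per peak rather than per site. In all, 10 OSKM-only, 7 common and no low-KLF4-only sites overlapped a peak of the JMJD3 cells, so 5 OSKM-only and 3 common sites had one there and none in the FLAG cells. The 30 included sites nearest to Dsp, Bmp7, Atf3, Barhl1 and Meis2, and the 2 were nearest to C1ql3 and Stox2. In MEFs before reprogramming 77 OSKM-only, 7 common and 1 low-KLF4-only site overlapped a peak of the wild-type list. The intervals of the 3 classes overlapped in the day 5 list of wild-type FLAG cells. In that of wild-type JMJD3 cells, the share was 0.0817% (0.0444 to 0.150) of OSKM-only and 0.387% (0.188 to 0.797) of common sites, and these intervals did not overlap. Without the vector exon sites and the sites in at least 8 H3K27me3 lists, fewer sites with a peak remained. These were 7 of 12230 OSKM-only (0.0572%, 0.0277 to 0.118) and 2 of 1800 common sites (0.111%, 0.0305 to 0.404), and the intervals overlapped. This exclusion is itself set by H3K27me3 peaks, among them those of this list. It removes sites with a peak by its rule, so the overlap cannot decide whether the classes differ. In the list of FLAG cells the same exclusion left 32 OSKM-only and 3 common sites with a peak.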

How the data were processed

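ChIP-seq lists of 14 libraries were held, and those for anti-FLAG (2), KLF4 (2) and H3K27me3 (10) were used, with groups from the sample labels and 1 library per group. The authors aligned reads to mm10 and called peaks with MACS2 (JMJD3, KLF4) and DFilter (H3K27me3). The submitters' processing notes name Bowtie2 2.2.0. The deposited JMJD3 values are 1 bp positions and the other deposited values are intervals, without read numbers, so depth is unknown. The members and gene lists were chosen with earlier results of these data known.

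Positions within 400 bp were merged, and a site's centre is the mean of its positions. TSSs, genes and exons came from GENCODE M21 basic transcripts. Motifs were matched as exact letters on both strands of GRCm38.p6 in 200-bp windows, and flanking windows 2 kb to the left and right gave the background. A KLF4 peak was counted when its midpoint was within 400 bp. Shares have Wilson and differences Newcombe 95% intervals. Neighbouring sites are not independent. Named genes were those of 14 lists, the 10 genes nearest to most sites of each class and the vector genes; windows were printed for listed genes, with the motif condition added after the data were seen. Python 3.11.15, numpy 2.4.6 and matplotlib 3.10.9 were used. Merging, motif search and intervals were tested on simulated data. Alternatives changed merging distance, window, flank, TSS set and gene distance. Single results for some listed genes are not reported here.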

Additional observations from a re-analysis of the deposited data

How the results depend on the processing

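With merging at 200 and 1000 bp, 88.1% and 86.3% of OSKM sites had no low-KLF4 position (87.1% at 400 bp), and 26.5% and 17.6% of low-KLF4 sites no OSKM position (20.7% at 400 bp). Merging at 1000 bp also moved the promoter share of OSKM-only minus common sites from 0.59 to -1.95 points and of OSKM-only minus low-KLF4-only sites from -3.52 to 2.28 points, each with an interval that included 0. In sites within 1 kb of a TSS the kept difference was -2.94 points for KLF and 1.67 for AP-1. With 100-bp windows the KLF and AP-1 shares of OSKM-only minus low-KLF4-only sites were 6.11 and -5.98 points. With 400-bp windows the AP-1 value was -13.2, and over 1 kb from a TSS the KLF value was 14.3. For RUNX it was -4.805 points, -1.91 with 100-bp windows and -8.00 over 1 kb from a TSS. Within 10 kb, 5 epithelial genes had an OSKM and 2 a low-KLF4 position, and 7 and 1 pluripotency genes did. By nearest TSS, 1 epithelial gene had a low-KLF4 position. The POU kept difference was 0.53 points as a mean over GC quintiles, with 1 POU site in the quintile richest in GC, and 4.07 points without that quintile. Its interval included 0 at 1000 bp merging and with windows on the OSKM position. By nearest TSS, 13 pluripotency genes had an OSKM and 3 a low-KLF4 position. All 18 alternatives of the KLF and AP-1 kept differences had the sign reported. These took GC quintiles only as a mean. In the quintile richest in GC the AP-1 difference was -4.18 points (-10.1 to 8.42), from 42 sites with a match. Settings on GC quintiles, the OSKM-centred window, vector exons, distal sites for motif shares, the distance of low-KLF4-only sites and OCT-SOX mismatches were chosen after seeing the data. Positions without a score allow no ranking, so no stricter threshold could be tried. The cause of these shifts was not tested. No paired analysis was possible because each group had 1 library.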
